A study of Homo sapiens with 12 samples.

Results

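AluY elements, the youngest branch of the Alu family, were followed in RNA recovered with V5-tagged proteins in A375 cells, an established human melanoma line. Members were every annotated element whose subfamily name starts with AluY and that had reads on its own strand. There were 62142 such elements in at least 1 of 12 libraries, of 1509971 elements of 6 repeat classes counted the same way. RNA was measured by PAR-CLIP, in which cells take up a photoactivatable uridine analogue, light crosslinks it to bound protein, and an antibody to the tag recovers protein and bound RNA together. All cells were transfected transiently with 1 of 4 constructs, and labelling with 4-thiouridine began 24 h afterwards. Clover, a fluorescent protein with the V5 tag and no ZC3H18 sequence, was the control. Z18fl was full-length ZC3H18, Z18trunc was its truncated form, and Z18truncZnFmut was the truncated form with mutated aromatic residues in the zinc finger. Each construct had 3 libraries, numbered 1 to 3 in the titles, with nothing in the labels to say whether they came from separate cultures, so the p-values measure the spread between these libraries, which may be technical. The tables hold repeats alone, so neither the cell line nor the amount of each construct was checked against genes.

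Alu elements are short interspersed repeats of primate genomes that descend from the RNA of the signal recognition particle. A full-length copy is a pair of related arms joined by an A-rich linker and ends in an A tail, and its left arm carries an internal promoter for RNA polymerase III. Most Alu RNA in a cell lies inside transcripts of RNA polymerase II, in introns and untranslated regions, where the element is copied along with its host gene. AluY copies are the least diverged from their consensus, and the AluYa5 and AluYb8 branches hold most recent human insertions. ZC3H18 is a nuclear protein that joins the cap-binding complex to factors that feed RNA to the nuclear exosome.

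Members were alike in sequence. Their median length was 302 bases, 88.5% had at least 280 bases, and their median divergence from the consensus was 6.5%. They held a median of 16.0% T, which stands for uridine in the RNA, and 97.6% had a run of at least 6 A. By gene annotation, 1138 members (1.83%) lay in exons on their own strand, 25548 in introns, 15575 antisense to a gene and 19881 between genes. Subfamily AluY itself held 47339 members (76.2%), and the other members fell into the remaining subfamilies of 25 in all. Counts were spread thinly. Of the members, 24564 (39.5%) had a total of at most 1 count over all 12 libraries, while the top 100 elements held 15.1% of AluY counts. Only 837 members (1.35%), with 35.2% of AluY counts, passed the filter on low counts in at least 1 comparison, so the counts of called elements below describe those and not all members.

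Aligned fragments ranged from 16683132 to 25686948 per library, and AluY counts from 28708 in Clover replicate 3 to 66359 in Z18truncZnFmut replicate 3. The number of AluY elements with a count was 10059 to 11271 in Clover, 14668 to 16594 in Z18fl and 15837 to 18402 in Z18trunc. Z18truncZnFmut replicate 3 stood apart with 28649 elements, against 15564 and 15142 in the other 2 libraries of its group. It also had the lowest share of AluY counts on the strand of the element, 57.8% against 66.1% to 69.2% in the other 11 libraries. In that library AluS had 56.9% and AluJ 56.7% of counts on the strand of the element, so the shift was not particular to AluY. The main totals of its group are given with and without it.

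AluY RNA in counts per 1000000 aligned fragments (CPM) was higher with each ZC3H18 construct than with Clover, but the difference depended on how libraries were scaled. The 3 Clover libraries had 1780, 1722 and 1624 CPM. The Z18fl libraries had 1983, 1799 and 1963 CPM, the Z18trunc libraries 2133, 2111 and 2217 CPM, and the Z18truncZnFmut libraries 2193, 2081 and 2740 CPM. No library of any ZC3H18 construct overlapped with Clover. The means were 1709 ± 79 CPM for Clover, 1915 ± 101 for Z18fl, 2154 ± 56 for Z18trunc and 2338 ± 353 for Z18truncZnFmut (SD, n = 3). Each two-sided exact permutation test against Clover gave p = 0.1, the smallest that 3 against 3 allows, and 0.25 after adjustment over 40 such tests. Without Z18truncZnFmut replicate 3 the difference of Z18truncZnFmut from Clover was 428 CPM in place of 629, and the difference from Z18trunc was -16.7 CPM in place of 184. When libraries were scaled instead by the TMM factors of all repeat elements, the AluY mean was below that of Clover for every ZC3H18 construct, but without overlap only for Z18fl (exact permutation p = 0.1 for Z18fl, 0.2 for Z18trunc and 0.4 for Z18truncZnFmut). Without Z18truncZnFmut replicate 3, the difference of its group from Clover on that scale was -889 in place of -8996 counts, taken per 1000000 TMM-scaled repeat counts. As a share of all repeat counts on the strand of the element, AluY made up 4.32% ± 0.12 with Clover, 3.68% ± 0.14 with Z18fl, 3.78% ± 0.07 with Z18trunc and 3.73% ± 0.60 with Z18truncZnFmut (4.08% without its replicate 3).

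**Figure D1:**
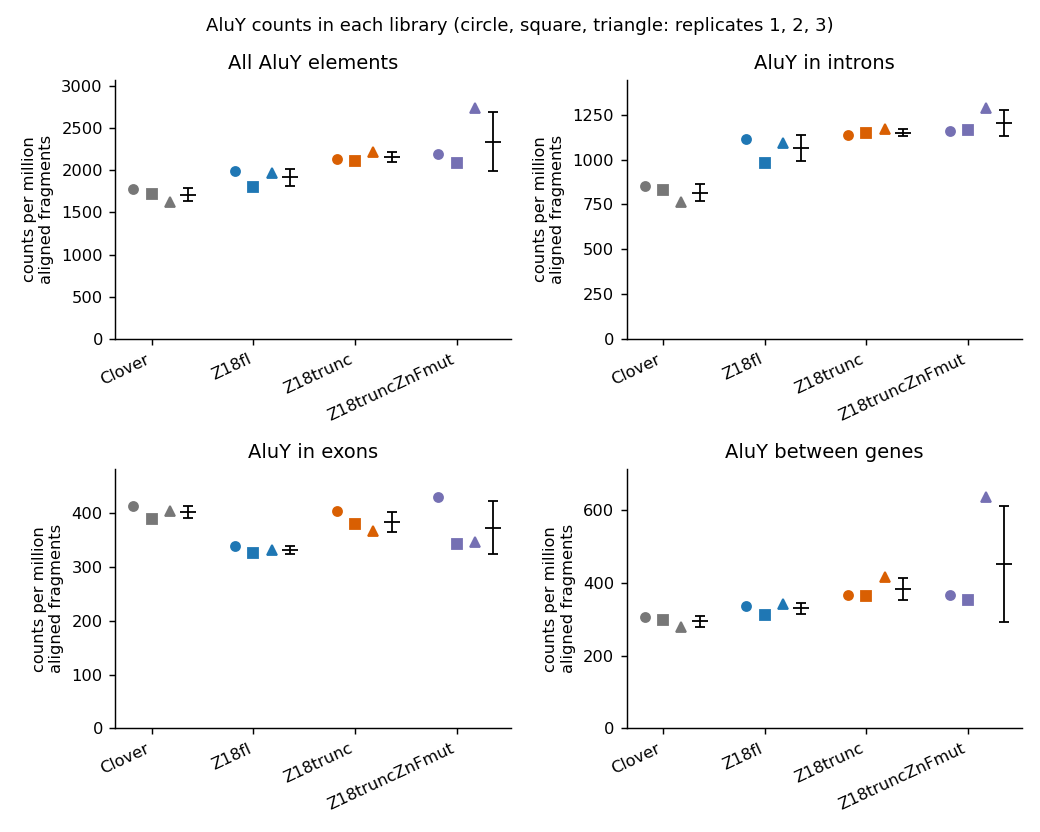
AluY CPM (y axis) in each library (points, replicates 1 to 3) with the group mean and SD beside them (bars, n = 3 per construct), for all AluY elements and for those in introns, in exons and between genes. The Clover libraries are below every other library in the total, in introns and between genes, while in exons every Z18fl library is below every Clover library.

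Set against the older Alu elements, AluY differed little between constructs. The log2 ratio of AluY to AluS plus AluJ counts was -3.16 ± 0.01 with Clover, -3.17 ± 0.01 with Z18fl, -3.13 ± 0.02 with Z18trunc and -3.14 ± 0.03 with Z18truncZnFmut. This ratio does not depend on library scaling. The mean of Z18trunc was above that of Clover by 0.03 and above that of Z18fl by 0.05 on the log2 scale, without overlap (two-sided exact permutation test, p = 0.1, adjusted p = 0.25 for both). The gap to Clover was narrow, with -3.149 in Z18trunc replicate 2 and -3.151 in Clover replicate 2. AluY stayed between 9.94% and 10.4% of Alu counts in all libraries.

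How surely reads could be placed also differed between constructs. Reads that mapped to a single place made up 69.6%, 66.2% and 64.3% of AluY counts in Clover and 72.8%, 74.5% and 71.2% in Z18fl. The groups did not overlap (exact permutation p = 0.1, adjusted 0.25). With Z18trunc the share was 68.7% to 72.6% and with Z18truncZnFmut 66.5% to 69.8%, both overlapping with Clover. AluS and AluJ had similar shares, with means of 69.4% and 71.5% in Clover and 75.3% and 76.6% in Z18fl.

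A smaller share of AluY RNA lay in exons, and with Z18fl and Z18trunc a larger share in introns, than with Clover. Exonic elements held 23.17%, 22.58% and 24.85% of AluY counts with Clover, but 17.04%, 18.04% and 16.84% with Z18fl, 18.93%, 17.97% and 16.52% with Z18trunc and 19.59%, 16.46% and 12.63% with Z18truncZnFmut. All 9 libraries with a ZC3H18 construct were below all Clover libraries. The differences of the means were -6.23, -5.73 and -7.30 percentage points for Z18fl, Z18trunc and Z18truncZnFmut, each with an exact permutation p = 0.1 (adjusted 0.25). Intronic elements held 48.0%, 48.4% and 46.9% in Clover, 56.3%, 54.7% and 55.7% in Z18fl and 53.2%, 54.3% and 52.8% in Z18trunc, without overlap. Z18truncZnFmut had 52.8%, 56.1% and 47.1% in introns, which overlapped with Clover through replicate 3. The intronic share of Z18trunc differed from that of Z18fl by -2.14 percentage points, without overlap (exact permutation p = 0.1, adjusted 0.25). The intergenic share, 17.12% to 17.36% in Clover and 16.997% to 17.40% in Z18fl, overlapped between all groups.

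In CPM, Z18fl differed from Clover in both contexts. Exonic AluY elements had 412, 389 and 404 CPM in Clover and 338, 325 and 331 CPM in Z18fl, while intronic elements had 855, 833 and 762 CPM in Clover and 1117, 983 and 1093 CPM in Z18fl. Every Z18fl library was below Clover in exons and above it in introns. With Z18trunc, introns were also above Clover (1135 to 1170 CPM), but exons (366 to 404 CPM) overlapped with it. In bulk libraries fewer cells that hold an RNA and less of it bound per cell cannot be told apart. None of the 12 libraries measured total RNA, so the amount of a host RNA and its binding cannot be told apart either. The counts also take all recovered reads, with no selection for bases changed by crosslinking.

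Of the exonic AluY counts, 74.7% lay in 491 elements with at least 50% of their length in untranslated regions (UTRs), and most exonic elements that were lower in Z18fl were among them. In the edgeR test of single elements, 453 AluY elements were tested for Z18fl against Clover, of which 84 were higher (18.5%) and 150 lower (33.1%) at an adjusted p under 0.05. Over all 12098 repeat elements tested, 28.3% were higher and 24.6% lower. The median log2 fold change of the AluY elements was -0.38, beside 0.01 for all elements. With libraries scaled by aligned fragments the median of all elements was 0.48 and that of AluY 0.03, and 140 AluY elements were higher and 90 lower of 473 tested. The AluY median lay below that of all elements under both scalings. A change of scaling shifts all elements by a similar amount, so it does not test that order. AluS and AluJ elements had medians of -0.46 and -0.30 with TMM and -0.02 and 0.17 with aligned fragments, so AluS lay below AluY.

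By context, 71 of 156 exonic AluY elements were lower in Z18fl (45.5%) and 20 were higher (12.8%), with a median log2 fold change of -0.76. Over all exonic repeat elements 42.4% were lower and 11.5% higher, with a median of -0.62. Among the 114 exonic elements mostly in UTRs, 67 were lower and 4 higher, with a median of -0.95. With aligned-fragment scaling, 49 of 114 were lower and 7 higher (median -0.59). All repeat elements in UTRs behaved alike, with 54.0% lower and 4.36% higher and a median of -0.85, and AluS and AluJ elements in UTRs had medians of -1.02 and -0.94. The lower level in UTRs was thus shared with other repeats. Among the 42 other exonic elements, in coding or non-coding transcripts, 16 were higher and 4 lower, with a median of 0.55, beside 28.6% higher, 15% lower and a median of 0.29 over all repeats of that kind.

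The 4 UTR elements that were higher in Z18fl are named here after their values were seen. They lay in ZNF91, a zinc finger gene (log2 fold change 0.50 ± 0.21), ENSG00000283515 (1.06 ± 0.42), TSC2, the tuberin gene (1.64 ± 0.38), and HPCAL1, a calcium sensor of neurons (1.77 ± 0.66, all SE). Outside UTRs, the exonic elements that rose lay among others in DOT1L, a histone methyltransferase (3.15 ± 0.59), PRPF8, a core spliceosome protein (2.67 ± 0.71), and RPS7, a ribosomal protein (2.27 ± 0.50). The elements in GOLGA8A and GOLGA8B had the same estimate, 1.497 ± 0.28. Reads may have been divided between them, which was not tested, so neither is read alone.

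In introns, a smaller share of AluY elements than of repeats outside the Alu family was higher in Z18fl. Of 189 intronic AluY elements tested, 42 were higher (22.2%) and 47 lower (24.9%) in Z18fl, with a median log2 fold change of -0.13. Over all intronic repeat elements 41.8% were higher and 12.8% lower (median 0.64), and over those outside the Alu family 52.4% and 8.99% (median 1.04). Intronic AluS elements were close to AluY, with 21.3% higher and 20.6% lower. With aligned-fragment scaling, 77 of 201 intronic AluY elements were higher and 25 lower (median 0.56). The 72 intergenic elements had 16 higher and 18 lower, beside 28.1% and 22.1% of all intergenic elements, and the 36 antisense elements 6 and 14, beside 18.8% and 28.1%.

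**Figure D2:**
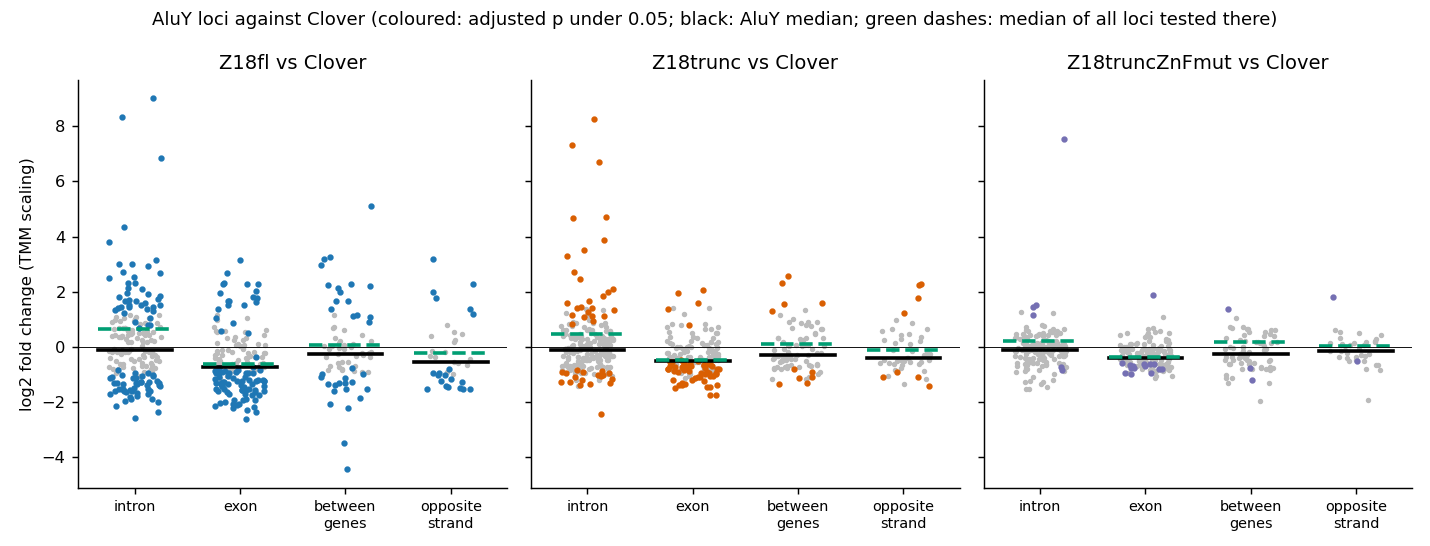
Log2 fold changes against Clover (y axis, edgeR with TMM scaling) of the AluY elements tested, 1 point per element, by gene context and construct, coloured where the adjusted p was under 0.05, with the AluY median (black) and the median of all elements tested in that context (green dashes). Exonic medians of AluY were -0.76, -0.54 and -0.41 in Z18fl, Z18trunc and Z18truncZnFmut and intronic ones -0.13, -0.12 and -0.11, and with aligned-fragment scaling those of Z18fl were -0.40 and 0.56; points far above 4 are elements at or near 0 counts in Clover, whose height depends on the fit.

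Single elements moved much further than the family. Elements were named by a rule that asked for a call, no overlap between groups, a mean of at least 20 counts in whichever group was higher and at least 50% uniquely mapping counts. The element at chr10:1023194-1023498, in an intron of the non-coding gene IDI2-AS1, had 0, 0 and 2 counts in Clover and 27, 22 and 33 counts in Z18fl. Its counts were 44, 34 and 27 in Z18trunc and 34, 16 and 17 in Z18truncZnFmut, so all ZC3H18 libraries were above Clover. Relative to aligned fragments it was 29.4-fold higher in Z18fl (95% counting interval 7.88 to 247) and 37.7-fold higher in Z18trunc (10.2 to 315), with edgeR adjusted p-values of 7.5e-05 and 2.8e-05.

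The element at chr12:132735953-132736249, in an intron of ANKLE2, which encodes a protein of the nuclear envelope, had 1, 2 and 0 counts in Clover and 35, 22 and 25 in Z18fl. The ratio was 19.6 (95% counting interval 6.47 to 97.0), with an adjusted p of 0.00012. The third element to rise, at chr3:49802168-49802474, lay between genes, 2734 bases past the end of UBA7, which encodes the activating enzyme of the ubiquitin-like protein ISG15. It is described with the zinc finger mutant below, since that comparison turned on it.

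The 3 elements that fell most with Z18fl lay in different contexts. An element in the UTR of AP3S2, a subunit of an adaptor complex (chr15:89832487-89832787), had 12, 32 and 29 counts in Clover and 9, 10 and 6 in Z18fl, a log2 fold change of -2.36 (adjusted p = 0.00022). An intergenic element 1461 bases past C19orf53 (chr19:13780235-13780530) had 20, 42 and 17 counts against 6, 12 and 12, a log2 fold change of -2.23 ± 0.42 (adjusted p = 0.00027). The intronic element in NMT1, which encodes an N-myristoyltransferase (chr17:45100286-45100579), had 28, 30 and 30 counts against 19, 5 and 11, a log2 fold change of -2.16 ± 0.38 (adjusted p = 0.00014). All 3 were also lower with aligned-fragment scaling, where the last had -1.80 ± 0.39. Clover and Z18fl did not overlap at these elements, although Z18fl libraries were the deeper ones.

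Of the 5 most abundant AluY elements, 4 lay in UTRs, and the other was an AluYa5 element in a non-coding gene, described with its subfamily below. The element in ABL2, a tyrosine kinase gene (chr1:179101997-179102310), had 494, 371 and 525 counts with Clover, 315, 310 and 352 with Z18fl, 528, 498 and 358 with Z18trunc and 559, 406 and 431 with Z18truncZnFmut. In CPM it went from 27.0 ± 4.6 with Clover to 13.6 ± 0.1 with Z18fl, 19.3 ± 3.7 with Z18trunc and 19.99 ± 2.8 with Z18truncZnFmut. The log2 fold change against Clover was -1.35 ± 0.13 for Z18fl, -0.83 ± 0.14 for Z18trunc and -0.64 ± 0.15 for Z18truncZnFmut (edgeR adjusted p = 3.6e-07, 0.00012 and 0.0046). The elements in COA7, a mitochondrial assembly factor (chr1:52686451-52686747), TSR1, a ribosome maturation factor (chr17:2322503-2322811), and FBXL18, an F-box protein (chr7:5476884-5477186), were also lowest in Z18fl, with log2 fold changes of -1.73, -1.55 and -1.48. The fall in Z18truncZnFmut passed the test with TMM scaling only: with aligned fragments its adjusted p was 0.094 for ABL2, 0.067 for COA7, 0.11 for TSR1 and 0.081 for FBXL18. The ABL2 call in Z18trunc passed with aligned fragments (adjusted p = 0.02) and was lost without a filter on low counts (adjusted p = 0.54).

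Z18trunc differed from Clover at fewer AluY elements. Of 500 tested, 40 were higher (8.0%) and 80 lower (16.0%), beside 22.5% and 13.4% of all elements. The median log2 fold change was -0.35, against -0.03 for all elements, and with aligned-fragment scaling it was 0.06 against 0.39. There 80 were higher (16.0%) and 21 lower (4.19%) of 501, beside 32.0% and 3.69% of all elements. UTR elements again made up most of the lower ones, with 50 of 127 lower and 1 higher (median -0.65). All repeats in UTRs had 32.1% lower and 1.35% higher (median -0.58). In introns 26 of 208 were higher and 18 lower, beside 35.4% and 6.01% of all intronic elements. Both Z18fl and Z18trunc were compared with the same Clover libraries, so their calls are not independent. The count of 120 calls fell to 65, 67 and 78 without Z18trunc replicate 1, 2 and 3.

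Some intronic elements at or near 0 counts in Clover had reads with every ZC3H18 construct. The partial element in an intron of NF1, the neurofibromin gene (chr17:31179598-31179796), had no count in any Clover library and 19, 14 and 22 counts with Z18fl, 28, 31 and 18 with Z18trunc and 18, 9 and 20 with Z18truncZnFmut. Against a floor of 3 counts over the Clover group, it was at least 13.1-fold higher with Z18fl, at least 18.4-fold with Z18trunc and at least 11.6-fold with Z18truncZnFmut. An AluYj4 element in an intron of SRSF4, a splicing factor gene (chr1:29178354-29178649), had 3, 0 and 2 counts in Clover, 14, 14 and 19 in Z18fl and 17, 16 and 27 in Z18trunc, a log2 fold change of 2.71 ± 0.67 for Z18trunc (adjusted p = 0.0032). Its counts with Z18truncZnFmut were 13, 5 and 2, which overlapped with Clover.

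The elements that fell most with Z18trunc were an AluYh3 in the UTR of GINS4, a replication factor (chr8:41542427-41542655, log2 fold change -1.51 ± 0.31, adjusted p = 0.00069), an element in the UTR of DPYSL5 (chr2:26948577-26948877, -1.48 ± 0.29, adjusted p = 0.00047) and an element antisense to C22orf23 (chr22:37947825-37948134, -1.42 ± 0.37, adjusted p = 0.0048). At GINS4 the counts were 37, 37 and 26 in Clover and 26, 16 and 20 in Z18trunc, which do not overlap once divided by depth. At DPYSL5 they were 43, 34 and 38 in Clover and 30, 28 and 15 in Z18trunc. These 3 were also called lower in Z18fl, with log2 fold changes of -1.995, -1.27 and -1.49. Over 13 settings the adjusted p in Z18trunc reached 0.061 for GINS4, 0.041 for DPYSL5 and 0.41 for C22orf23. In Z18fl it reached 0.0012, 0.088 and 0.13, so not all of these calls were kept in every setting.

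Z18truncZnFmut differed from Clover at few AluY elements. Of 395 tested, 7 were higher (1.8%) and 19 lower (4.8%), beside 12.3% and 4.83% of all elements. The median log2 fold change was -0.24, against -0.05 for all elements, and with aligned-fragment scaling it was 0.03 against 0.24. There 19 were higher (4.42%) and 1 lower (0.233%) of 430, beside 17.7% and 1.17% of all elements. Of the 19 lower elements 14 lay in UTRs, where 12.8% of all repeats tested were lower. Without Z18truncZnFmut replicate 2 the count of 26 calls was 14, and without replicate 3 it was 21, with 10 higher and 11 lower.

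The 3 elements that rose most in Z18truncZnFmut were an AluYa5 element on chromosome 19, described with its subfamily below, and 2 others. The element at chr20:63684352-63684642, antisense to RTEL1, a helicase of telomere maintenance, and to the readthrough gene RTEL1-TNFRSF6B, had 5, 7 and 5 counts in Clover and 42, 26 and 27 in Z18truncZnFmut, a log2 fold change of 1.81 ± 0.44 (adjusted p = 0.0044). It had 74, 86 and 124 counts in Z18fl, above every other library in CPM, and 52, 61 and 31 in Z18trunc, which overlapped with Z18truncZnFmut. The element in an intron of RPL17-C18orf32 (chr18:49488904-49489178) had 5, 10 and 4 counts against 30, 31 and 24, a log2 fold change of 1.51 ± 0.47 (adjusted p = 0.023). That call was lost without Clover replicate 1 (1.32), Clover replicate 3 (1.21) or Z18truncZnFmut replicate 2 (1.42).

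Among elements that fell in Z18truncZnFmut, an intergenic element 1279 bases past LRRC37A4P (chr17:45506565-45506829) had 41, 45 and 47 counts in Clover and 30, 33 and 25 in Z18truncZnFmut, a log2 fold change of -1.22 ± 0.28 (adjusted p = 0.003). Over 13 settings its adjusted p reached 0.46, so this call was not kept in all of them. UTR elements in LIMS1, a focal adhesion protein (chr2:108686045-108686338), and INTS7, an Integrator subunit (chr1:211941369-211941652), had log2 fold changes of -0.98 ± 0.30 and -0.95 ± 0.26 (adjusted p = 0.023 and 0.01). The LIMS1 call was lost without Clover replicate 2 (-0.88) or 3 (-1.02) and without Z18truncZnFmut replicate 1 (-0.83) or 2 (-0.81). The INTS7 call was lost without Clover replicate 2 (-0.91) or Z18truncZnFmut replicate 3 (-0.72). Neither passed with aligned-fragment scaling.

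Truncation was then set beside the full-length protein. For Z18trunc against Z18fl, 724 AluY elements were tested, of which 15 were higher (2.1%) and 15 lower (2.1%), beside 2.62% and 3.13% of all elements. UTR elements accounted for 11 of the 15 higher ones, with 2 of 133 lower and a median log2 fold change of 0.30, beside 4.55% higher, 2.38% lower and a median of 0.14 over all repeats in UTRs. COA7 (0.82 ± 0.14, adjusted p = 0.0012), TSR1 (0.75 ± 0.15, 0.0056) and FBXL18 (0.61 ± 0.14, 0.015) were among them, as was ZNF561, a zinc finger gene (1.10 ± 0.24, 0.0078). Over 13 settings the adjusted p reached 0.092 for COA7, 0.22 for TSR1 and 0.56 for FBXL18, so these calls were not kept in all settings. Leaving out Z18fl replicate 1 or 2 took the count of 30 calls to 15 or 14, and leaving out Z18trunc replicate 1 or 2 took it to 19 or 18.

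The largest rise among eligible elements was at an AluYh3 in the UTR of ZNF426, a zinc finger gene (chr19:9525503-9525786), with 4, 4 and 8 counts in Z18fl and 28, 26 and 24 in Z18trunc, a log2 fold change of 2.20 ± 0.39 (adjusted p = 0.0018). Clover had 11, 9 and 15 counts there. An intergenic element at chr5:138502744-138503043 had 9, 9 and 10 counts in Z18fl and 37, 28 and 27 in Z18trunc (1.63 ± 0.33, adjusted p = 0.0056). In the other direction, the AluYe5 fragment of 75 bases at chr12:120292742-120292816 had 75, 67 and 102 counts with Z18fl, 23, 35 and 30 with Z18trunc, 13, 15 and 15 with Z18truncZnFmut and 6, 3 and 8 with Clover. Every library of each group there was apart from those of the next, and the log2 fold change of Z18trunc against Z18fl was -1.53 ± 0.22 (adjusted p = 0.00026). The element at chr5:181247405-181247700, in an intron of CTC-338M12.4 and only 1.0% diverged, had 28, 25 and 31 counts against 17, 9 and 10 (-1.29 ± 0.33, adjusted p = 0.024). This last call was lost without Z18fl replicate 1 (-1.27) or 2 (-1.30) or Z18trunc replicate 2 (-1.06) or 3 (-1.21).

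Between the truncated protein and its zinc finger mutant, 2 AluY elements of 659 tested differed, both lower in Z18truncZnFmut than in Z18trunc, beside 0.368% of all elements higher and 0.351% lower. The first was the intergenic chr3 element. It had 17, 7 and 14 counts with Clover, 214, 181 and 272 with Z18fl, 100, 112 and 123 with Z18trunc and 35, 20 and 12 with Z18truncZnFmut. In CPM these were 0.740 ± 0.31, 9.23 ± 1.3, 4.67 ± 0.50 and 0.961 ± 0.48. Z18fl and Z18trunc were apart from each other and from both other groups, and Z18truncZnFmut overlapped with Clover. The log2 fold change was 3.27 ± 0.24 for Z18fl against Clover (adjusted p = 1.4e-08), 2.31 for Z18trunc against Clover (3.2e-06) and 0.16 for Z18truncZnFmut against Clover (0.85). Z18trunc was below Z18fl by 1.05 on the log2 scale (a log2 fold change of -1.05, adjusted p = 0.00046), and Z18truncZnFmut was below Z18trunc with -2.12 ± 0.27 (adjusted p = 0.00044). The last value lay between -2.48 and -1.83 under 13 settings, with an adjusted p of at most 0.0071.

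The other element lay in the UTR of IFIT3, an interferon-induced gene (chr10:89340277-89340581). It had 29, 43 and 43 counts with Clover, 86, 91 and 86 with Z18fl, 118, 122 and 108 with Z18trunc and 69, 51 and 36 with Z18truncZnFmut. It was the UTR element called higher in Z18trunc than in Clover (log2 fold change 0.77 ± 0.21, adjusted p = 0.0064). Over 13 settings the adjusted p of that comparison reached 0.063, so the call against Clover was not kept in all of them. Z18truncZnFmut was below Z18trunc with -0.95 ± 0.22 (adjusted p = 0.041). That call was lost without Z18trunc replicate 1 (-0.97), 2 (-0.96) or 3 (-0.96) and without Z18truncZnFmut replicate 2 (-1.03) or 3 (-0.74), so it rests on the full set of libraries. At an unadjusted p under 0.05, 79 AluY elements differed between Z18truncZnFmut and Z18trunc, 45 higher and 34 lower, beside 1138 higher and 1279 lower of 16833 elements in all.

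**Figure D3:**
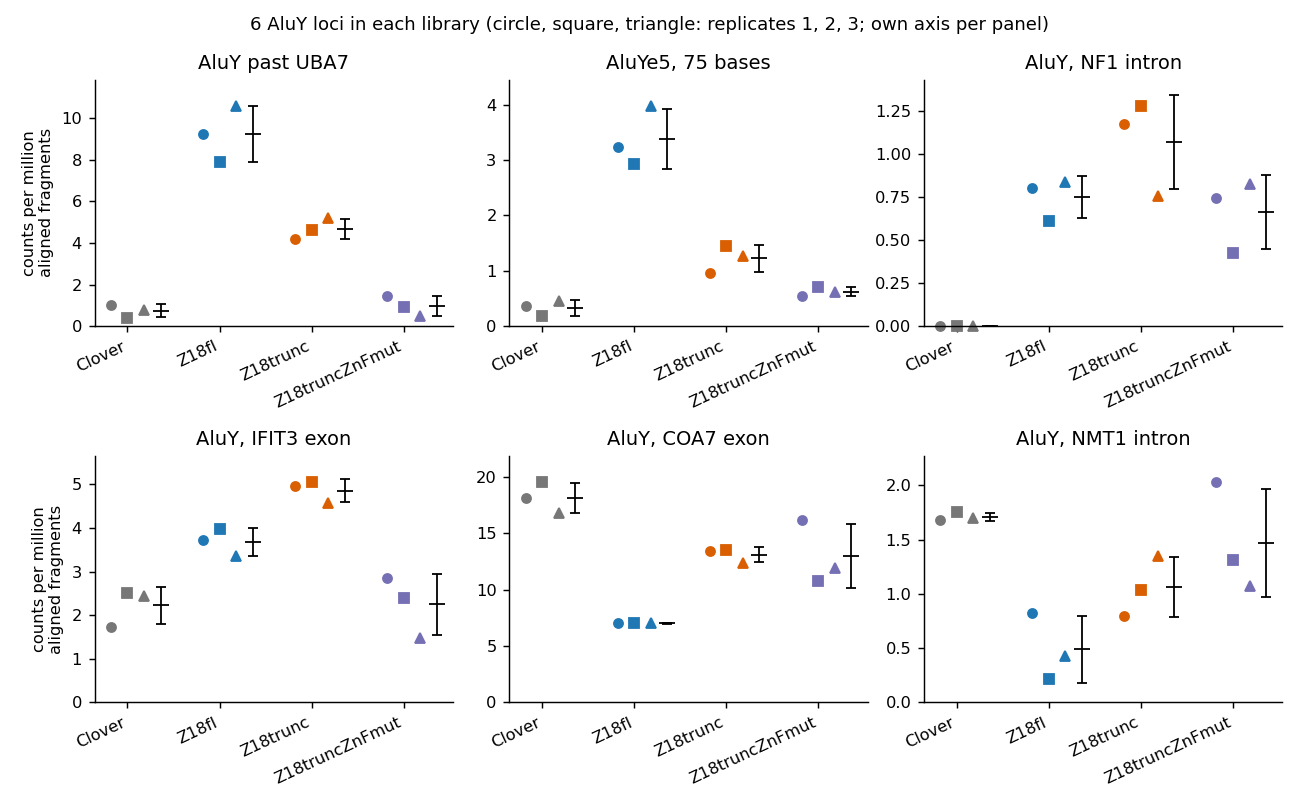
CPM (y axis, its own range in each panel) at 6 named AluY elements in each library (points, replicates 1 to 3), with the group mean and SD (bars, n = 3 per construct). The element past UBA7 has means of 0.740, 9.23, 4.67 and 0.961 in Clover, Z18fl, Z18trunc and Z18truncZnFmut, and the COA7 element 18.2, 7.04, 13.1 and 13.0.

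Summed over subfamilies, direction followed the scaling for several, among them AluY itself. In Z18fl, AluYb8 and AluYi6 were below 0 and AluYc3 above 0 under both scalings. With TMM, 1 of 23 AluY subfamilies tested was higher in Z18fl than in Clover and 9 were lower, beside 20.1% of all subfamilies in each direction. With aligned-fragment scaling 11 were higher (47.8%) and 0 lower, beside 54.1% and 4.24% of all subfamilies. AluY itself had 24042, 23997 and 23363 counts in Clover and 36367, 32805 and 40038 in Z18fl, a log2 fold change of -0.34 ± 0.06 with TMM (adjusted p = 0.00032) and 0.13 ± 0.07 with aligned fragments (adjusted p = 0.11). AluYm1, with 55.6 ± 3.2 CPM in Clover and 62.7 ± 4.7 in Z18fl, had -0.29 ± 0.07 with TMM (adjusted p = 0.0043) and 0.18 with aligned fragments. AluYc and AluYj4 did not pass the test with TMM (-0.17 and -0.16) and were higher with aligned fragments (0.30 and 0.31, adjusted p = 0.022 and 0.014).

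A change of scaling shifts all subfamilies by a similar amount, so it does not test their order. AluYb8 had the lowest fold change of the large subfamilies named here under both scalings. It had 653, 620 and 611 counts in Clover and 818, 632 and 844 in Z18fl, a log2 fold change of -0.67 ± 0.09 with TMM (adjusted p = 1.7e-05) and -0.20 ± 0.11 with aligned fragments (adjusted p = 0.12). AluYi6 had -0.62 ± 0.11 (adjusted p = 0.0003), but its top element, in an exon of LRRC58, held 41.9% of its counts, and without it the value was -0.32 (adjusted p = 0.13). AluYh3a3 had -0.34 ± 0.11 (adjusted p = 0.024) and -0.06 without its top element, in an exon of ZNF791 (adjusted p = 0.73). So the calls of AluYi6 and AluYh3a3 rested on 1 exonic element each. With aligned fragments AluYi6 had -0.15 and AluYh3a3 0.13.

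The smaller subfamilies gave weaker calls. AluYa8, with 24 to 45 counts per library in Z18fl, had -0.80 ± 0.26 (adjusted p = 0.019), lost without Z18fl replicate 2 (-0.59) and without its top element (-0.86, adjusted p = 0.05). AluYf1, AluYg6 and AluYh3 had -0.23, -0.42 and -0.23 (adjusted p = 0.04, 0.027 and 0.049), each lost on leaving out single libraries, among them Clover replicate 3 (-0.20, -0.40 and -0.21), and each above 0 with aligned fragments (0.25, 0.05 and 0.24). AluYc3 was the subfamily called higher. It had 142, 138 and 110 counts in Clover and 312, 327 and 338 in Z18fl, with 7.6 ± 1.2 and 13.6 ± 0.6 CPM and a log2 fold change of 0.37 ± 0.11 with TMM (adjusted p = 0.013) and 0.84 ± 0.13 with aligned fragments. Without its top element, in an intron of SMG5, a nonsense-mediated decay factor gene, the value was 0.58 ± 0.13 (adjusted p = 0.0016), and without Clover replicate 3 it was 0.28 (adjusted p = 0.074).

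Against Clover, Z18trunc had 0 AluY subfamilies higher and 2 lower with TMM, beside 14.5% and 11.9% of all subfamilies, and 14 higher with aligned fragments (60.9%), beside 45.1% of all subfamilies. The lower ones were AluYb8 (-0.30 ± 0.10, adjusted p = 0.034) and AluYi6 (-0.46 ± 0.16, adjusted p = 0.034), with 0.18 and 0.02 under aligned fragments. Without the top element of each subfamily they had -0.21 (adjusted p = 0.16) and -0.07 (adjusted p = 0.85). Neither call held without Clover replicate 1, 2 or 3, with values of -0.32, -0.29 and -0.28 for AluYb8 and -0.48, -0.49 and -0.40 for AluYi6, nor without Z18trunc replicate 3 (-0.17 and -0.29). In Z18truncZnFmut no AluY subfamily was called by edgeR (0 at an unadjusted p under 0.05), beside 1.3% of all subfamilies higher and 0% lower. Without Z18truncZnFmut replicate 3, AluYb8 was called lower (-0.32 ± 0.11, adjusted p = 0.021). No AluY subfamily was called between Z18trunc and Z18fl (3 at an unadjusted p under 0.05, beside 1.48% and 2.43% of all subfamilies called) or between Z18truncZnFmut and Z18trunc (1 at an unadjusted p under 0.05, beside 0% and 0%).

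**Figure D4:**
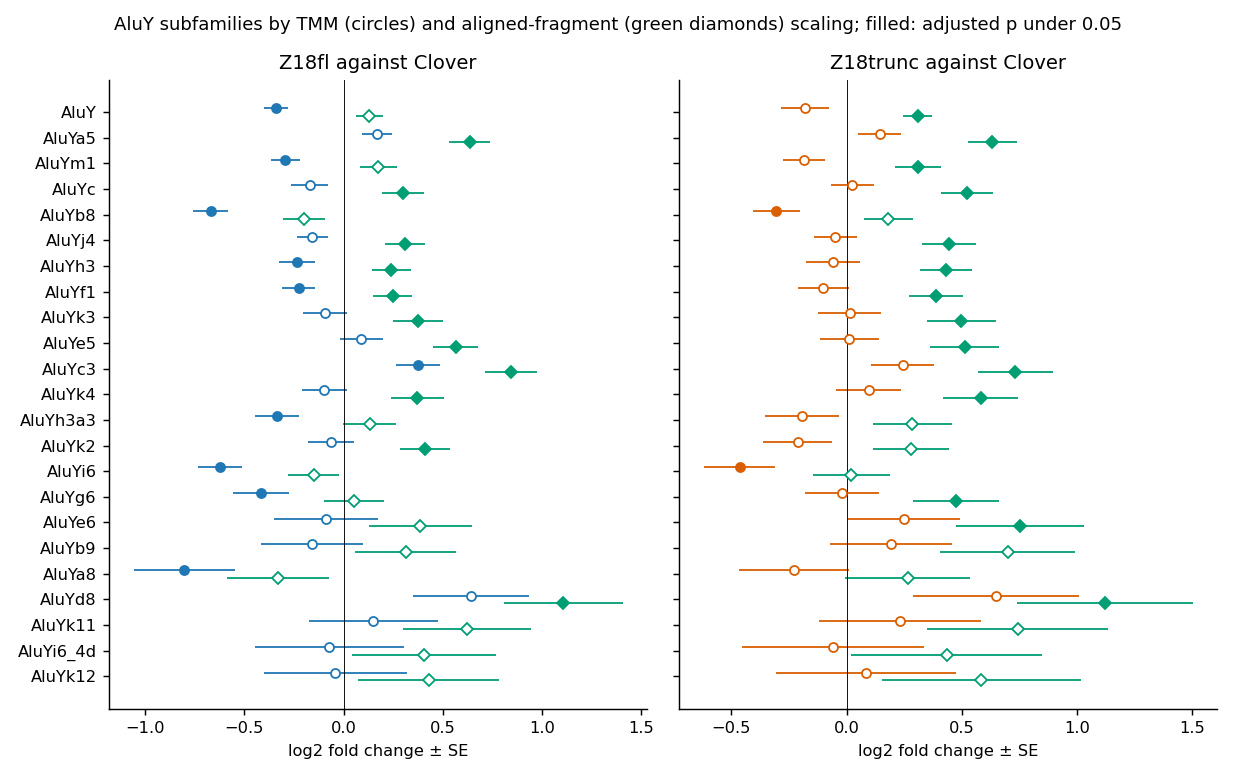
Log2 fold changes (x axis) with SE (bars) of the 23 AluY subfamilies tested in Z18fl and Z18trunc against Clover, from edgeR fits with TMM scaling (circles) and with aligned-fragment scaling (diamonds), filled where the adjusted p was under 0.05. In Z18fl, AluY is at -0.34 with TMM and 0.13 with aligned fragments, and AluYc3 at 0.37 and 0.84.

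AluYa5 was made up of elements with different behaviour. The subfamily as a whole had 1068, 871 and 915 counts in Clover and 2125, 1830 and 2243 in Z18fl, a log2 fold change of 0.17 ± 0.08 (adjusted p = 0.088). Part of it was a set of 20 annotated elements of 132 bases on chromosome 19, picked out after the values were seen and given as a description. Of these, 10 lay between 47904261 and 47957763 on the plus strand, between genes, and 10 between 50095891 and 50137327 on the minus strand in the non-coding gene ENSG00000287001. The 20 had only 5 distinct sequences, any pair of them being at least 97.0% identical, and were 10.6% to 12.1% diverged from the AluYa5 consensus. Each lay 1008 to 3285 bases from the nearest of 26 SNAR genes on that chromosome, which encode small RNAs bound by the protein NF90.

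The set had 135, 53 and 49 counts with Clover, 885, 853 and 978 with Z18fl, 558, 387 and 620 with Z18trunc and 412, 426 and 472 with Z18truncZnFmut. In CPM these were 8.09, 3.10 and 2.77 for Clover, 38.2, 37.2 and 38.1 for Z18fl, 23.5, 16.0 and 26.2 for Z18trunc and 17.04, 20.01 and 19.49 for Z18truncZnFmut. Every ZC3H18 library was above every Clover library, and Z18fl was above both truncated forms. Its share of AluYa5 counts was 8.03% ± 4.0 with Clover, 43.9% ± 2.5 with Z18fl, 25.2% ± 4.1 with Z18trunc and 23.3% ± 2.1 with Z18truncZnFmut. The rest of AluYa5 had 50.9 ± 4.4 CPM with Clover, 48.5 ± 5.5 with Z18fl, 64.3 ± 2.8 with Z18trunc and 62.4 ± 8.5 with Z18truncZnFmut. Without the set, AluYa5 had a log2 fold change of -0.54 in Z18fl and -0.07 with aligned fragments, given with no test because the set was chosen for its level. Reads could rarely be assigned within the set, since 34.6% of its counts mapped uniquely, against 47.6% in other AluYa5 elements, so single members are uncertain.

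The member with most counts, at chr19:50137196-50137327, had 64.1% uniquely mapping counts. It had 67, 30 and 19 counts with Clover, 335, 330 and 373 with Z18fl, 304, 168 and 309 with Z18trunc and 213, 194 and 254 with Z18truncZnFmut. The log2 fold change was 2.32 ± 0.26 with Z18fl, 1.93 ± 0.31 with Z18trunc and 1.87 ± 0.28 with Z18truncZnFmut (edgeR adjusted p = 1.5e-06, 6.8e-05 and 3.1e-05). All members of the set that could be tested were called higher. They were 8 of 8 with Z18fl, 5 of 5 with Z18trunc and 4 of 4 with Z18truncZnFmut, beside 28.3%, 22.5% and 12.3% of all elements. The set was chosen for its level and its members share reads, so these counts are a description and not separate evidence. Of the 6 other AluYa5 elements tested in Z18fl, 2 were higher and 2 lower.

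**Figure D5:**
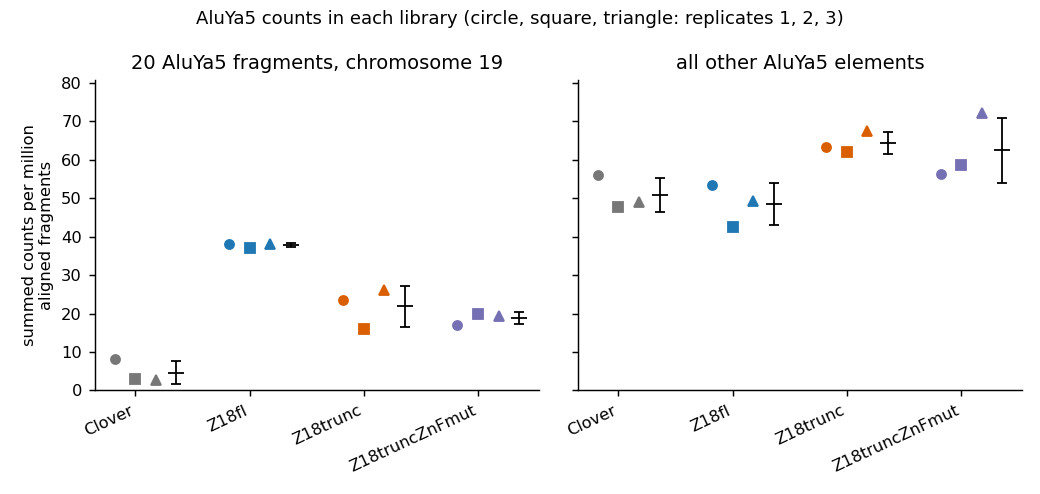
Summed CPM (y axis) of the 20 AluYa5 elements of 132 bases on chromosome 19 and of all other AluYa5 elements in each library (points, replicates 1 to 3), with the group mean and SD (bars, n = 3 per construct). The set of 20 has 4.65 CPM in Clover and 37.8 in Z18fl on average, and the rest 50.9 and 48.5.

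Age, length and base content of the elements went with modest differences, read here as descriptions because members share host genes and reads. The classes were not separated by gene context, nor set against the same classes of AluS or AluJ. Over all AluY elements tested in Z18fl 18.5% were higher and 33.1% lower, and over all repeat elements 28.3% and 24.6%. In Z18fl, elements under 5% diverged had 15 of 92 higher and 25 lower (median log2 fold change -0.22), those 5% to 10% diverged 56 of 329 higher and 114 lower (-0.43), and those over 10% diverged 13 of 32 higher and 11 lower (-0.21). The AluYa5 set lies in the last class. Elements with up to 15% T had a median of -0.19 (24 higher and 25 lower of 94), those with over 17% T -0.64 (19 and 38 of 94). Elements whose longest A run near the tail was under 10 bases had a median of -0.22, and those with a run of 20 or more -0.62. By branch, the Ya elements had 10 of 15 higher (8 of them from the set on chromosome 19), the Yb elements 0 of 7 higher and 4 lower, and the Yc elements 4 of 12 higher and 1 lower.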

How the data were processed

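Anti-V5 PAR-CLIP libraries of A375 cells, 3 for each of 4 constructs, were grouped by their titles. The authors trimmed reads with cutadapt 4.6 and ran SQuIRE, which maps to hg38 and splits multimapping reads among repeat copies by expectation maximization, giving 1 file per library. The deposited totals are expected counts, rounded here, and the deposited uniquely mapping reads and aligned fragments are counts. The divergence of an element from its consensus is a score in the deposited files, printed here as a percent. Starts in the files count from 0 and are printed counted from 1.

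Counts on the strand of each LTR, LINE, SINE, DNA, RC and Retroposon element were tested with edgeR 4.0.16 (R 4.3.3; quasi-likelihood, TMM, filterByExpr with minimum count 10 and minimum total 15) on the 6 libraries compared, in 5 comparisons, with Benjamini-Hochberg adjustment over all elements or subfamilies and a threshold of 0.05. Totals and shares of libraries were set against each other with 40 exact permutation tests (two-sided). CPM were computed per 1000000 aligned fragments. Errors of fold changes are SE. Gene context came from GENCODE release 44, exonic meaning at least 50% of an element in exons on its strand, SNAR genes from RefSeq, and base content and identity from hg38. Element sequences and 1 gene are not reported here. Within groups all library pairs differed by more than sampling noise. Counting intervals and floors cover counting error only.

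Named subfamilies were AluY, AluYa5, AluYb8, the 3 others with most counts and any called. Named elements were, among calls without overlap that had a mean of at least 20 counts in whichever group was higher and at least 50% unique counts, the 3 that rose and the 3 that fell most against Clover, the 2 in each direction in the other comparisons, and the 5 most abundant. Members, lists and rules were chosen with earlier results of these data known. Tested on simulated data for Z18fl against Clover (12098 elements), the fit recovered 26% of 2-fold and 76% of 4-fold changes, none in the wrong direction, and 4.67% of its calls were false. In the other comparisons of elements it recovered 19% to 30% of 2-fold and 67% to 75% of 4-fold changes, and 5.21% to 7.08% of calls were false. Each simulation changed only 200 elements, as many up as down. In the data 3424 elements were called higher and 2981 lower for Z18fl against Clover. The simulation therefore does not test the scaling, or the share of false calls, where so many elements differ. Alternatives were DESeq2 1.42.0, aligned fragments as library sizes, no filter, either strand, unique counts, all 12 libraries in a single fit, a replicate block, unadjusted p-values, AluS alone as the denominator, any exon overlap, elements of at least 280 bases and each library left out. Python 3.11.15, numpy 2.4.6, pandas 2.3.3, scipy 1.17.1, pysam 0.24.0 and matplotlib 3.10.9 did the rest.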

Additional observations from a re-analysis of the deposited data

Results flagged for a closer look

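The share of AluY counts on the strand of the element averaged 68.6% with Clover and 66.7% with Z18fl, without overlap (exact permutation p = 0.1, adjusted 0.25). With Z18trunc (67.3%) and Z18truncZnFmut (64.2%) it overlapped with Clover. Reads on the opposite strand entered only this share and the fits on either strand. These reads at AluY elements were more frequent with each ZC3H18 construct than in the Clover control. They came to 782.8 CPM on average with Clover, 956.1 with Z18fl, 1048.3 with Z18trunc and 1357.0 with Z18truncZnFmut. All 9 ZC3H18 libraries were above all 3 Clover libraries. The Z18truncZnFmut libraries had 1002, 1065 and 2004 CPM, the last in replicate 3, which also had the most AluY elements with a count. The other 2 libraries of that group were also above all Clover libraries. Without replicate 3 the mean of that group was 1034 CPM. Counts of the 6 repeat classes on both strands also rose. Their means were 1120403 with Clover, 2021461 with Z18fl, 2173287 with Z18trunc and 2587935 with Z18truncZnFmut (3943760 in its replicate 3). Mean aligned fragments were 17153708, 23928880, 23882728 and 23224780, so repeats in general made up more of the fragments. On the strand of the element, AluS had 11026 CPM with Clover and 12335 with Z18fl, and AluJ 4240 and 4941. The share on that strand went from 65.5% to 63.4% for AluS and from 64.9% to 64.1% for AluJ. Opposite-strand reads of AluS and AluJ thus rose as well, so the rise was not particular to AluY. Whether its size differed from that in AluY was not tested.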

How the results depend on the processing

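Several directions depended on scaling. With TMM library sizes the differences in AluY CPM were -8640 for Z18fl, -4557 for Z18trunc and -8996 for Z18truncZnFmut against Clover and -4440 for Z18truncZnFmut against Z18trunc, taken per TMM-scaled repeat total. Z18trunc and Z18truncZnFmut overlapped with Clover there, and without Z18truncZnFmut replicate 3, a choice made after seeing the data, the -8996 was -889. With aligned fragments the log2 fold changes of subfamilies turned above 0 in Z18fl for AluY (0.13), AluYm1 (0.18), AluYc (0.30), AluYj4 (0.31), AluYf1 (0.25), AluYg6 (0.053), AluYh3 (0.24) and AluYh3a3 (0.13) and in Z18trunc for AluYb8 (0.18) and AluYi6 (0.020). AluYa5 in Z18fl was below 0 without the chromosome 19 set (-0.54) or without its top element (-0.034), both chosen after seeing the data. The log2 ratio to older Alu elements was 0.0023 for Z18fl against Clover with AluS alone and 0.0187 for Z18truncZnFmut against Z18trunc on either strand. The intergenic share of Z18fl was above Clover by 0.101 with unique counts and 0.126 with any exon overlap.

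Counts of called elements were 150 for Z18fl with unique counts. For Z18trunc they were 74 with DESeq2, 77 without a filter, 74 with unique counts and 189 with all 12 libraries. For Z18truncZnFmut they were 74 unadjusted, 15 with DESeq2, 15 without a filter, 17 with unique counts and 79 with all 12 libraries. For Z18trunc against Z18fl they were 152 unadjusted, 14 without a filter and 15 with all 12 libraries. For Z18truncZnFmut against Z18trunc they were 79 unadjusted, 4 with DESeq2, 4 with aligned fragments, 1 without a filter, 5 with unique counts and 1 with the replicate block. Called subfamilies were 6 with DESeq2 and 0 with all 12 libraries in Z18fl, and in Z18trunc 1 with DESeq2, 14 with aligned fragments, 1 without a filter, 0 on either strand and 0 with all 12 libraries. For Z18trunc against Z18fl they were 3 unadjusted, 1 with DESeq2 and 1 on either strand, and for Z18truncZnFmut against Z18trunc 1 unadjusted. Without a filter, more AluY elements were higher than lower against Clover, the reverse of the main fit. For Z18fl 117 were higher and 59 lower of 31530, beside 0.764% and 0.153% of all elements. For Z18trunc 72 were higher and 5 lower of 34250, beside 0.642% and 0.0135%. For Z18truncZnFmut 14 were higher and 1 lower of 42789, beside 0.132% and 0.00113%. With unique counts, 302, 310 and 248 AluY elements were tested against Clover. The cause of these moves was not tested.

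Without single libraries, the difference in AluY CPM ranged from -16.7 to 313 for Z18truncZnFmut against Z18trunc. Called elements ranged from 65 to 146 for Z18trunc, 14 to 29 for Z18truncZnFmut, 14 to 35 for Z18trunc against Z18fl and 1 to 5 for Z18truncZnFmut against Z18trunc, where 5 were called without Z18truncZnFmut replicate 1 and 1 without its replicate 3 or any Z18trunc library. Called subfamilies ranged from 5 to 10 for Z18fl (5 without Clover replicate 3), 0 to 3 for Z18trunc (0 without any 1 of the Clover libraries), 0 to 3 for Z18trunc against Z18fl (3 without Z18trunc replicate 3) and 0 to 1 for Z18truncZnFmut (1 without its replicate 3). In percentage points, the antisense share ranged from -0.755 to 2.50 for Z18truncZnFmut against Clover and -0.317 to 2.94 against Z18trunc. The exonic share ranged from -0.0607 to 1.14 for Z18trunc against Z18fl and -3.26 to 0.219 for Z18truncZnFmut against Z18trunc, and the intronic share of the latter from -3.47 to 1.02. The intergenic share ranged from -0.0910 to 0.110 for Z18fl, -0.0011 to 0.818 for Z18trunc and -0.400 to 2.85 for Z18truncZnFmut against Clover, and -0.923 to 2.33 for Z18truncZnFmut against Z18trunc. For that last pair the log2 ratio to older Alu elements ranged from -0.0210 to 0.00747 and the sense-strand share from -5.32 to 0.119. The uniquely mapping share of Z18truncZnFmut against Clover ranged from -0.0811 to 2.56.

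Same-numbered libraries did not deviate together (correlations of -0.09 to 0.04). Deviations were taken from means of 3 libraries at elements with few counts, so this check cannot show whether those libraries shared a preparation. With the replicate block, 202 elements were called for Z18fl, 99 for Z18trunc, 24 for Z18truncZnFmut and 22 for Z18trunc against Z18fl, and the IFIT3 call (adjusted p = 0.077) and the AluYf1 call (adjusted p = 0.056) were lost among named ones. Low counts limited the tests to 837 AluY elements.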

Other observations

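The log2 ratio of intronic to exonic AluY counts, which does not depend on library scaling, was 1.02 ± 0.09 with Clover, 1.68 ± 0.07 with Z18fl, 1.59 ± 0.09 with Z18trunc and 1.70 ± 0.24 with Z18truncZnFmut (SD, n = 3). All 9 ZC3H18 libraries, at 1.43 or above, were higher than the 3 Clover libraries, at 1.10 or below.

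AluY elements antisense to a gene had 195.8 ± 13.6 CPM in Clover and 189.6 ± 9.31 in Z18fl (SD, n = 3), which overlapped. They had 238 ± 22.9 CPM in Z18trunc, above both. In Z18truncZnFmut they had 308 ± 138 CPM, with 467 CPM in replicate 3 and a mean of 229 CPM without it. No test was run on either measure.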
